A study of Mus musculus with 12 samples.

Results

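The SLC25 family of mitochondrial carriers was described in fasted mouse liver with and without Ube4a in hepatocytes. The members were the protein-coding genes of the deposited count table whose symbol starts with Slc25a and a digit, which gave 47 genes of 41708 in all. The choice used symbols only, no measured value, and left out relatives with other symbols, such as the uncoupling proteins. Liver RNA was sequenced from 7 mice with hepatocyte knockout (LKO), which carried floxed Ube4a alleles (flanked by loxP sites) and Cre recombinase under the Albumin promoter, and from 5 mice that carried the floxed alleles without Cre (flox). Both groups were on a C57BL6/J background and were fasted overnight for 16 h, and neither age nor sex is given in the labels. No mice with Cre alone are among the samples, so effects of Cre and of Ube4a loss cannot be told apart. The samples were whole liver, in which cells other than hepatocytes keep Ube4a, and fewer cells of a type and less RNA per cell cannot be told apart in such data.

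SLC25 carriers are nuclear-encoded proteins that mostly sit in the inner mitochondrial membrane and exchange nucleotides, phosphate, carboxylates, amino acids, acylcarnitines and cofactors between cytosol and matrix. In the fasted liver they connect cytosolic and mitochondrial steps: acylcarnitines enter for fatty acid oxidation, malate and aspartate leave for gluconeogenesis, ornithine enters for the urea cycle, and ADP enters against ATP. Several members occur as closely related copies that serve different tissues.

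The libraries held 13399874 to 16525053 counts, and the SLC25 carriers took 0.588% to 0.740% of them in LKO livers and 0.640% to 0.758% in flox livers. Ube4a measured 26.6 ± 3.45 CPM (counts scaled to library size, SD, n = 7) in LKO livers, between 23.2 and 34.0, and 134 ± 11.6 CPM (SD, n = 5) in flox livers, between 119.7 and 152. The groups did not overlap (log2 fold change -2.33, edgeR adjusted p = 3.44e-09, and p = 0.00126 by a two-sided exact permutation test, the smallest that 792 splits allow). Of the hepatocyte markers checked, 6 of 7 were in the table, and their summed level ran from 80775 to 113119 CPM in LKO livers and from 82716 to 105490 CPM in flox livers. Among the flox livers, replicates 4 and 5 were unlike the other 10 libraries: 6 neutrophil markers summed to 236 and 379 CPM there, against at most 1.5 CPM in LKO livers and 0.599 CPM in flox replicates 1 to 3, and 5 macrophage markers to 362 and 528 CPM, against 57.7 to 178 CPM in LKO livers and 20.9 to 80.8 CPM in flox replicates 1 to 3. In the same pair, 3 endothelial markers summed to 99.8 and 133 CPM, against at most 72.1 CPM in LKO livers and 39.4 CPM in flox replicates 1 to 3. The sums of 3 stellate cell markers were 177 and 262 CPM in the pair, against at most 148 CPM in LKO livers and 116 CPM in flox replicates 1 to 3. Where leaving out this pair turned a direction or moved a log2 fold change described here by over 1.5 times, the value without it is given as well.

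No SLC25 carrier passed the test between LKO and flox livers. Of the 47 members, 40 had enough counts to be tested, and 0 had an adjusted p under 0.05 in the quasi-likelihood test of edgeR (Benjamini-Hochberg adjusted over 12615 genes), where 0.00793% of all genes, that is Ube4a alone, passed. The smallest adjusted p of a member was 0.625. Without adjustment, 3 of 40 members had p under 0.05 in edgeR, 7.5%, beside 7.64% of all genes tested. Slc25a17 and Slc25a21 were the 2 with higher values in LKO livers, where 3.49% of all genes were, and Slc25a14 was the 1 with lower values, where 4.15% were. DESeq2 also gave 3 members at an unadjusted p under 0.05, beside 6.02% of all genes, and 0 after adjustment, beside 0.142% (smallest adjusted p of a member 0.468). With limma voom and quality weights there were 8, 4 higher and 4 lower, or 20% beside 13.1% of all genes, and 0 after adjustment (smallest adjusted p = 0.269). Log2 fold changes of the members were negative for 28 and positive for 12, with a median of -0.04, and 51.7% of all genes tested were negative, with a median of -0.0060. Without flox replicates 4 and 5 the median was -0.05 for the members and 0.0041 for all genes. Log2 fold changes of single carriers are therefore values of genes that did not pass.

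The precision was enough to bound the difference for most of these carriers. The 95% confidence interval lay within 1.5-fold in both directions for 30 of 40 members, 75%, beside 65.3% of all genes tested. Among the 23 members with a mean of at least 10 FPKM (fragments per kilobase of gene length, scaled to library size), 22 had such an interval and the exception was Slc25a30. The largest log2 fold change in those 23 was 0.23 in size. The intervals of the other 10 members reached past 1.5-fold, so a difference of that size was not excluded for them at this depth.

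**Figure D1:**
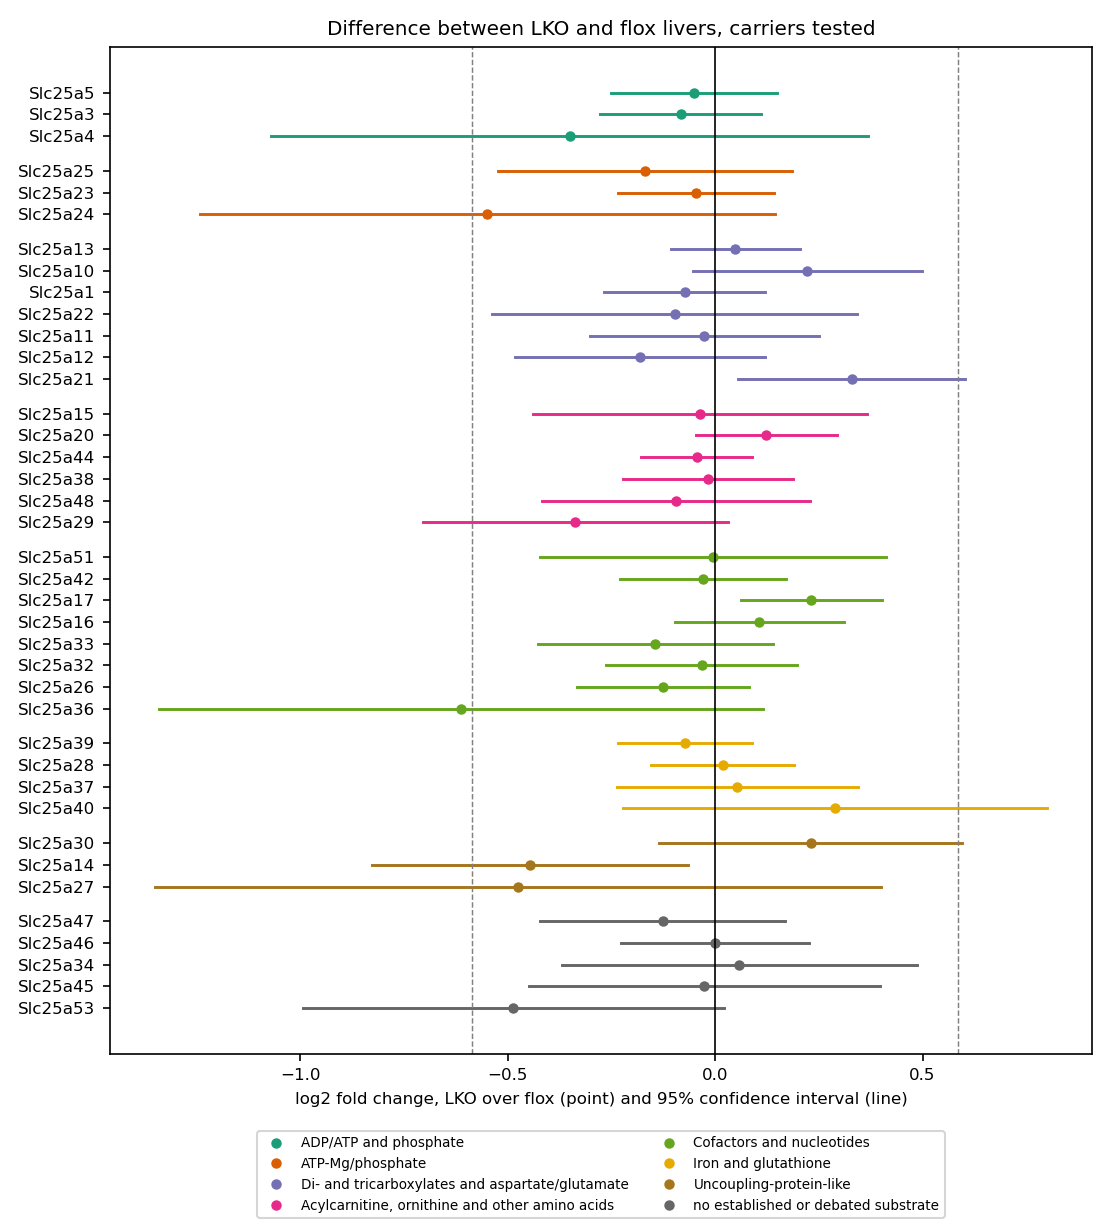
Log2 fold change of LKO over flox livers for the SLC25 carriers tested (x axis; 1 of the 40 is not drawn), grouped by what they carry. Points are estimates, lines their 95% confidence intervals, and dashed lines mark 1.5-fold in each direction; most intervals lie between the dashed lines, and none of the genes drawn passed after adjustment.

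The family spanned a wide range of levels, which had the same leading members in both groups. Slc25a47 alone took 34.2% of the summed FPKM of the family, and the 10 highest members together took 83.4%. The 23 members at 10 FPKM or more were followed by 11 between 1 and 10 FPKM and 13 under 1 FPKM, of which 6 could be tested. Slc25a41 and Slc25a54 had 0 counts in all 12 livers, which allows up to 3 counts per library, or 0.182 to 0.224 CPM. Adjacent members in the order mostly overlapped among livers: Slc25a5 was above Slc25a39 in 8 of 12 livers, Slc25a10 above Slc25a1 in 5 of 12 and Slc25a25 above Slc25a11 in 6 of 12. The lead of Slc25a47 over Slc25a5 was 3.30-fold with ranges that did not overlap. Slc25a3 over Slc25a20 and Slc25a46 over Slc25a38 were the other 2 neighbouring pairs with separate ranges.

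**Figure D2:**
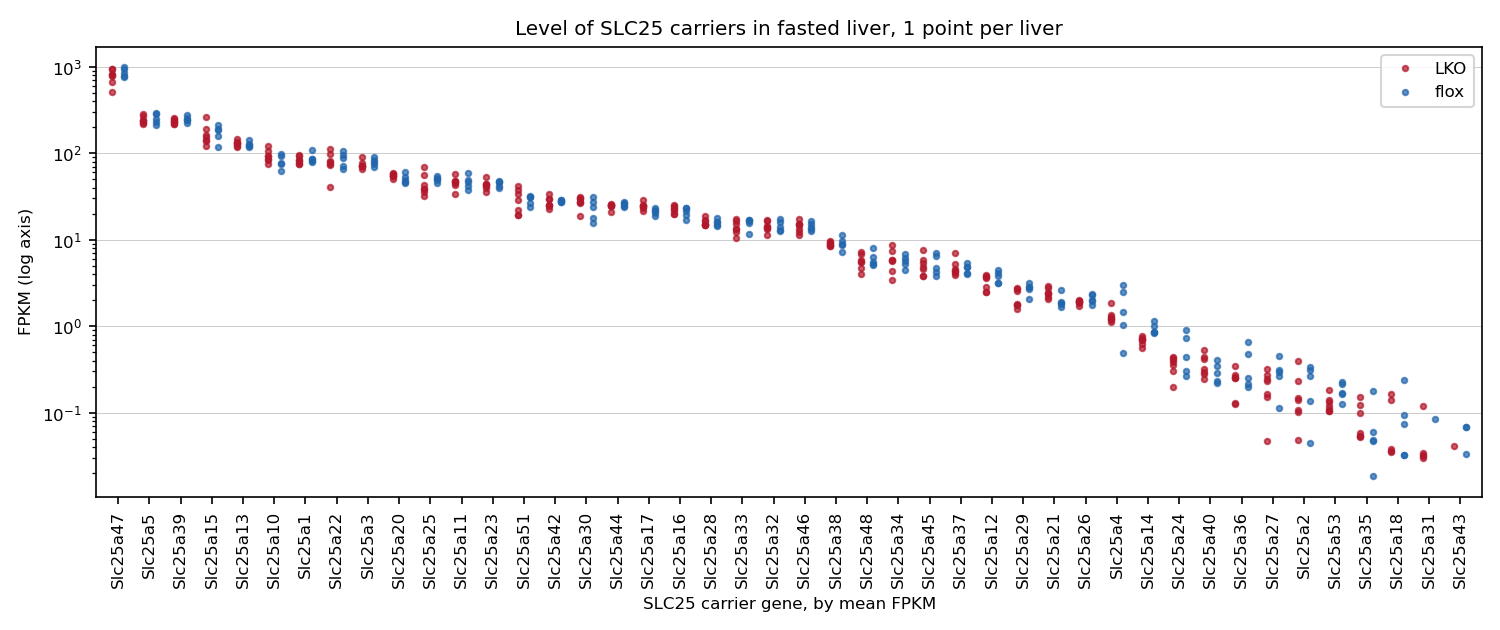
FPKM (log axis) of the SLC25 carriers in each liver, with LKO livers left and flox livers right within each gene, ordered by mean FPKM. Values of 0 are not drawn, and Slc25a54 and Slc25a41, at 0 in every liver, and 1 other member are left out; Slc25a47 leads in every liver and most neighbours in the order overlap.

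Slc25a47, a liver-enriched carrier whose substrate is not settled, was the highest member in every liver. The gene (MGP_C57BL6NJ_G0020495) lies on chromosome 12 from 114426667 to 114432475 (plus strand; positions are those of the table, which uses a C57BL/6NJ annotation). It measured 818, 1274 and 1515 CPM (lowest, median and highest) in LKO livers, and 1471, 1559, 1330.4, 1238 and 1203 CPM in flox replicates 1 to 5. LKO replicates 4 and 6 lay below every flox liver, and the other 5 LKO livers lay within the flox range. Its level per length was 784 ± 154 FPKM in LKO livers and 860.4 ± 93.4 FPKM in flox livers (SD, n = 7 and 5). Its log2 fold change, -0.13, had a standard error of 0.14 and a 95% confidence interval of -0.42 to 0.17. It was -0.06 without LKO replicate 4, -0.08 without flox replicate 2 and -0.22 without flox replicates 4 and 5. In LKO replicate 4 Slc25a47 took 25.3% of the summed FPKM of the family, against 30.9% to 38.5% in the other LKO livers and 32.3% to 38.2% in flox livers.

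Some carriers that lie side by side on a chromosome differed widely in level. Slc25a47 is 17558 bases from Slc25a29, a carrier of basic amino acids on the opposite strand, with no protein-coding gene between them. Slc25a29 measured 2.12 ± 0.506 FPKM in LKO livers and 2.70 ± 0.402 FPKM in flox livers, so Slc25a47 was 369-fold higher in LKO livers and 319-fold higher in flox livers. On chromosome X, Slc25a5 lies 18157 bases from Slc25a43, which had at most 1 count in any LKO liver and 2 counts in any flox liver. Slc25a23 lies 2966 bases from Slc25a41, which was at 0 counts throughout. Slc25a24 lies 7827 bases from Slc25a54, also at 0 counts throughout, but was itself low. It measured 0.359 ± 0.0864 FPKM in LKO livers and 0.528 ± 0.275 FPKM in flox livers.

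The upstream sequences of the first and second of these neighbouring pairs are shown because each joins a high and a low gene. They are the 250 bases before the RefSeq start site in GRCm38.p6, another build than that of the count table, in the direction of transcription, with capitals for the GC box GGGCGG and the CCAAT box CCAAT found on either strand. The Slc25a47 sequence is chr12:108850879-108851128 on the plus strand and that of Slc25a29 is chr12:108835877-108836126 on the minus strand. The Slc25a5 sequence is chrX:36795347-36795596 and that of Slc25a43 is chrX:36743382-36743631, both on the plus strand.
Slc25a47: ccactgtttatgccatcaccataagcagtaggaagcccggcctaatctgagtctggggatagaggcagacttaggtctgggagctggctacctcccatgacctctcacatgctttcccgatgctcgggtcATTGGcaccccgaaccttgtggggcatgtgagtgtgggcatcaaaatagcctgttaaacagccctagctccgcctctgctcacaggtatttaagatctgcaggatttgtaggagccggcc
Slc25a29: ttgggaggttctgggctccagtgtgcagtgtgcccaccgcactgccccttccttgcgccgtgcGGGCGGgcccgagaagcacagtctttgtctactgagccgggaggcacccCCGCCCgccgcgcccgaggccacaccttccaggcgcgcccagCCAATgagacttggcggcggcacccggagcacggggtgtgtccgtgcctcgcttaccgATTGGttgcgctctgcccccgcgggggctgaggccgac
Slc25a5: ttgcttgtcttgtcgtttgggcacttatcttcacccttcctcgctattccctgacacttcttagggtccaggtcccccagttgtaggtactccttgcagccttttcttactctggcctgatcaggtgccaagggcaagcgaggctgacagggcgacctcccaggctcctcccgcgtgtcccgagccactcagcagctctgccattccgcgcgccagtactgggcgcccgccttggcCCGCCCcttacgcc
Slc25a43: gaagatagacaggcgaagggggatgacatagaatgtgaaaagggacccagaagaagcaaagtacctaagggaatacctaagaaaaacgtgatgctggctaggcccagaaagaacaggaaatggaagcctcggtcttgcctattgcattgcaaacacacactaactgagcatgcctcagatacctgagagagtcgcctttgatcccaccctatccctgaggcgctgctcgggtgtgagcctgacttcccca
The 4 sequences held 6, 25, 14 and 6 CpG dinucleotides for Slc25a47, Slc25a29, Slc25a5 and Slc25a43, so the higher gene had fewer in the first pair and more in the second. Among 36 members with an entry in the RefSeq table, with 46 start sites, the median was 11.5 CpG, and over the 21263 windows of protein-coding genes it was 10. Related genes of unequal level could have like counts: Slc25a39 at 240 FPKM had 35 and Slc25a40, its relative at 0.336 FPKM, had 40. The GC box was in 69.6% of the member windows and 42.6% of the protein-coding windows, and the CCAAT box in 45.7% and 35.4%. An ETS core, CCGGAAG, was in 13% and 8.98%, and a TATA box, TATAAA, in 4.35% and 11.6%. None of these 4 motifs overlaps another in the sequences shown. A match is a run of letters, not a shown binding site.

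Among the 4 members grouped as ADP/ATP and phosphate carriers, Slc25a5 and Slc25a3 held almost all of the summed FPKM. The ATP-Mg/phosphate carriers, described next, are not part of that sum. Slc25a5, the widely expressed ADP/ATP carrier, measured 366, 397 and 472 CPM (lowest, median and highest) in LKO livers, and 357, 483, 420.1, 381 and 472 CPM in flox replicates 1 to 5. The groups overlapped over nearly their whole range (log2 fold change -0.05, 95% confidence interval -0.25 to 0.15). Slc25a3, which imports phosphate for ATP synthesis, measured 74.3 ± 8.27 FPKM in LKO livers and 79.1 ± 8.04 FPKM in flox livers (log2 fold change -0.08, 95% confidence interval -0.28 to 0.11). Slc25a4, the ADP/ATP carrier of heart and skeletal muscle, was at 1.32 ± 0.254 FPKM in LKO livers and 1.69 ± 1.02 FPKM in flox livers. Slc25a5 thus made up 99.2% to 99.6% of the FPKM of Slc25a5 and Slc25a4 together in LKO livers and 98.9% to 99.8% in flox livers. Slc25a31, the germ cell form, had 0 to 4 counts per library. Of the 50-base stretches of Slc25a5 transcripts in GENCODE vM21, 33.8% also occur in transcripts of 9 other genes, most in Gm5560, so its count carries that uncertainty, and none of the 47 members shared such a stretch with another member.

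The calcium-regulated ATP-Mg/phosphate carriers differed in how evenly they were expressed. Slc25a25 measured 250.4, 308 and 543 CPM (lowest, median and highest) in LKO livers, and 410.1, 427, 354, 388 and 399 CPM in flox replicates 1 to 5. LKO replicates 2 and 5 lay above every flox liver and the other 5 LKO livers below. Its coefficient of variation was 29.2% in LKO livers and 6.88% in flox livers. Slc25a25 was not alone in this, as Slc25a42, a coenzyme A carrier, had 14.7% in LKO livers and 2.64% in flox livers. The ratio of the coefficients was at least 4 for these carriers, as for 0.983% of all genes tested. The cutoff of 4 was not planned and these carriers are named for their spread, so that share does not measure how unusual they are. Other carriers went the other way, as Slc25a38 had 5.08% in LKO livers and 16.6% in flox livers. The larger coefficient was in LKO livers for 21 of 40 members and for 48.0% of all genes. These differences in spread were not tested. The mean of Slc25a25 was 352 ± 103 CPM in LKO livers and 396 ± 27.2 CPM in flox livers (log2 fold change -0.17, standard error 0.16). Without LKO replicate 2 the log2 fold change was -0.31 (standard error 0.12), and without LKO replicate 3 it was -0.11. Slc25a23 was even, at 228 ± 27.5 CPM in LKO livers and 235 ± 17.2 CPM in flox livers, and Slc25a24 was under 1 FPKM in both groups. Slc25a25 overlaps Naif1 and Slc25a23 overlaps Crb3 on the opposite strand, and reads of such partners cannot be told apart because the strand setting of the counting is not given in the sources used here.

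Carriers of carboxylates, aspartate and glutamate, which serve the malate-aspartate shuttle and the export of carbon for gluconeogenesis, had 7 tested members of 8, with 3 positive and 4 negative log2 fold changes and 0 past the threshold. Slc25a13, the aspartate-glutamate carrier of liver known as citrin, measured 457, 497 and 556 CPM (lowest, median and highest) in LKO livers, and 479, 539, 477, 455 and 451 CPM in flox replicates 1 to 5. Its coefficient of variation was 6.82% in LKO livers and 7.38% in flox livers (log2 fold change 0.05, 95% confidence interval -0.11 to 0.20, and -0.0051 without flox replicates 4 and 5). Its relative Slc25a12 was at 3.27 ± 0.637 FPKM in LKO livers and 3.72 ± 0.586 FPKM in flox livers, and Slc25a13 made up 96.9% to 98.3% of the 2 together in LKO livers and 96.4% to 97.6% in flox livers. Slc25a10, which exchanges malate and succinate for phosphate, measured 261, 318 and 416 CPM (lowest, median and highest) in LKO livers, and 318, 337, 214, 261 and 268 CPM in flox replicates 1 to 5. LKO livers exceeded the flox mean in 6 of 7 (log2 fold change 0.22, 95% confidence interval -0.05 to 0.50, adjusted p = 0.701). Its log2 fold change was 0.15 without LKO replicate 1 and 0.14 without flox replicate 3. The oxoglutarate-malate carrier Slc25a11, which overlaps Rnf167 on the opposite strand, was at 45.8 ± 7.33 FPKM in LKO livers and 46.8 ± 8.25 FPKM in flox livers.

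The citrate exporter Slc25a1, which supplies cytosolic acetyl-CoA, measured 163, 184 and 209 CPM (lowest, median and highest) in LKO livers, and 238, 173, 179, 188 and 186 CPM in flox replicates 1 to 5. Flox replicate 1 was the highest liver, and the other flox livers lay within the LKO range. The glutamate carrier Slc25a22 was one of the most variable members, at 242, 484 and 676 CPM (lowest, median and highest) in LKO livers, and 398, 647, 431, 525.8 and 574 CPM in flox replicates 1 to 5. LKO replicate 4 was lowest and LKO replicate 7 highest. Its relative Slc25a18 had 0 to 5 counts in LKO livers and 1 to 6 in flox livers, on a gene that overlaps Atp6v1e1 on the opposite strand. Slc25a21, which carries oxoadipate from lysine breakdown, had the second smallest p of the members. It measured 10, 11.6 and 14.1 CPM (lowest, median and highest) in LKO livers, and 8.99, 12.5, 8.79, 9.04 and 7.92 CPM in flox replicates 1 to 5. All LKO livers were above the flox mean, but flox replicate 2 lay above 5 of them (log2 fold change 0.33, standard error 0.13, adjusted p = 0.630 in edgeR).

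Slc25a20, which exchanges acylcarnitines for carnitine and so feeds fatty acid oxidation during a fast, measured 226, 249 and 267 CPM (lowest, median and highest) in LKO livers, and 238, 274, 218, 209.9 and 203 CPM in flox replicates 1 to 5. Flox replicates 4 and 5 were the lowest livers (log2 fold change 0.12, 95% confidence interval -0.05 to 0.29, and 0.03 without the pair). Leaving out flox replicate 2 alone gave 0.19, and leaving out flox replicate 5 alone gave 0.08. Slc25a15, the ornithine carrier of the urea cycle, measured 417, 538 and 912 CPM (lowest, median and highest) in LKO livers, and 406, 647, 547, 665 and 724 CPM in flox replicates 1 to 5. The spread within each group exceeded the difference between them (log2 fold change -0.04, standard error 0.19, and 0.13 without flox replicates 4 and 5). Like Slc25a22, it was low in LKO replicate 4 and flox replicate 1 and highest in LKO replicate 7. The second ornithine carrier, Slc25a2, had 1 to 8 counts per library and was not tested. The glycine carrier Slc25a38, which supplies heme synthesis, was at 8.95 ± 0.452 FPKM in LKO livers and 9.10 ± 1.49 FPKM in flox livers. Slc25a44, a carrier of branched-chain amino acids, had a log2 fold change of -0.04 (95% confidence interval -0.18 to 0.09). Slc25a29 measured 4.13, 4.78 and 7.28 CPM (lowest, median and highest) in LKO livers, and 6.95, 5.38, 7.34, 7.32 and 8.17 CPM in flox replicates 1 to 5. All but 1 LKO liver lay below the flox mean (log2 fold change -0.34, standard error 0.17, adjusted p = 0.677 in edgeR).

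Cofactor and nucleotide carriers had 9 members, all tested, with 3 positive and 6 negative log2 fold changes and 0 past the threshold. Slc25a17, a carrier of coenzyme A and other cofactors in the peroxisome membrane, had the smallest p of the family. It measured 36.6, 41.1 and 48.5 CPM (lowest, median and highest) in LKO livers, and 38.5, 37.3, 35.9, 31.0 and 33.4 CPM in flox replicates 1 to 5. All 7 LKO livers exceeded the flox mean, and the ranges overlapped through LKO replicate 2. Its log2 fold change of 0.23 had a standard error of 0.08 and a 95% confidence interval of 0.06 to 0.40 (unadjusted p = 0.0109 and adjusted p = 0.625 in edgeR). Flox replicates 4 and 5 were the lowest livers, and without them it was 0.15 (unadjusted p = 0.119 in edgeR).

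Slc25a51, the mitochondrial NAD carrier, measured 107, 161 and 227 CPM (lowest, median and highest) in LKO livers, and 172, 178, 172, 145 and 131 CPM in flox replicates 1 to 5. LKO livers fell on both sides of the flox range: replicates 1, 3 and 6 lay below it and 4, 5 and 7 above. The group means were 159 ± 48.8 CPM in LKO livers and 159.7 ± 20.6 CPM in flox livers (log2 fold change -0.0040, 95% confidence interval -0.42 to 0.41, and -0.13 without flox replicates 4 and 5). Slc25a42, a coenzyme A carrier, was at 27.3 ± 4.0 FPKM in LKO livers and 28.0 ± 0.706 FPKM in flox livers, and the related Slc25a16 at 22.4 ± 2.25 FPKM in LKO livers and 20.9 ± 2.82 FPKM in flox livers. Slc25a42 made up 48.1% to 60.3% of the FPKM of both in LKO livers and 53.5% to 62.5% in flox livers. Log2 fold changes were -0.03 for the folate and FAD carrier Slc25a32, -0.13 for the S-adenosylmethionine carrier Slc25a26 and -0.14 for the pyrimidine nucleotide carrier Slc25a33. Without flox replicates 4 and 5, Slc25a32 was at -0.11 and Slc25a33 at -0.23. Slc25a26 overlaps Lrig1 on the opposite strand, which had a median of 491 counts. Slc25a26 itself had 125 to 148 counts in LKO livers and 111 to 181 in flox livers, so the same uncertainty about strand applies to it.

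Iron and glutathione carriers were led by Slc25a39, which imports glutathione into mitochondria. It measured 596, 656 and 702 CPM (lowest, median and highest) in LKO livers, and 701, 774, 664, 664 and 615 CPM in flox replicates 1 to 5, with wide overlap. The log2 fold change was -0.07 (95% confidence interval -0.23 to 0.09), and -0.13 without flox replicates 4 and 5. Slc25a40, its relative with the same substrate, was at 0.363 ± 0.104 FPKM in LKO livers and 0.298 ± 0.0797 FPKM in flox livers. Of the mitoferrins, which import iron, Slc25a28 was at 15.9 ± 1.46 FPKM in LKO livers and 15.8 ± 1.23 FPKM in flox livers, and Slc25a37 at 4.79 ± 1.05 FPKM in LKO livers and 4.63 ± 0.587 FPKM in flox livers. Slc25a28 made up 68.2% to 81.3% of the FPKM of both in LKO livers and 72.8% to 80.0% in flox livers, the lowest share being that of LKO replicate 4, where Slc25a37 reached 41.5 CPM against 23.3 to 31.1 CPM in the other LKO livers. Slc25a37 is also the mitoferrin of red cell precursors, and 2 erythroid markers in the table summed to 33.4 to 78.7 CPM in LKO livers and 27.4 to 64.4 CPM in flox livers; their part in its level was not tested.

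The uncoupling-protein-like members held the 1 carrier whose groups did not overlap. Slc25a14 measured 1.32, 1.65 and 1.85 CPM (lowest, median and highest) in LKO livers, and 2.70, 1.98, 2.37, 2.03 and 2.01 CPM in flox replicates 1 to 5. Each LKO liver lay below each flox liver, on 19 to 29 counts against 28 to 45 counts. Separate ranges occurred for 1 of 40 members, 2.5%, beside 0.484% of all genes tested. Its log2 fold change of -0.45 had a standard error of 0.18 and a 95% confidence interval of -0.83 to -0.06 (unadjusted p = 0.0251 and adjusted p = 0.635 in edgeR), and it was -0.53 without flox replicates 4 and 5 (unadjusted p = 0.0293 and adjusted p = 0.903 in edgeR). It was the only member at an unadjusted p under 0.05 in that fit, where 5.27% of all genes were. Slc25a30 measured 32.5, 46.9 and 53.2 CPM (lowest, median and highest) in LKO livers, and 53.8, 41.5, 47.2, 30.1 and 26.5 CPM in flox replicates 1 to 5. Its log2 fold change was 0.23 with all livers and -0.03 without flox replicates 4 and 5, the lowest livers. Slc25a27 was under 1 FPKM in both groups, on 2 to 16 counts per library.

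Members without an established substrate had 5 tested of 8, with 1 positive and 4 negative log2 fold changes and 0 past the threshold, Slc25a47 among them. Slc25a46, a protein of the outer membrane linked to mitochondrial shape, was at 14.3 ± 2.08 FPKM in LKO livers and 14.3 ± 1.62 FPKM in flox livers. Slc25a34 and Slc25a45 were between 5 and 6 FPKM on average in both groups. Slc25a53 measured 0.837, 0.948 and 1.46 CPM (lowest, median and highest) in LKO livers, and 1.8, 1.34, 0.994, 1.29 and 1.71 CPM in flox replicates 1 to 5 (log2 fold change -0.49, standard error 0.24, adjusted p = 0.661 in edgeR). Slc25a35 and Slc25a43 were not tested, for low counts.

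Livers differed among themselves in which carriers were high. Among the 23 members at 10 FPKM or more, the highest liver exceeded the lowest by a median of 1.52-fold. LKO replicate 4 held the lowest value for 7 of 40 tested members, among them Slc25a47, Slc25a22, Slc25a42 and Slc25a44, and the highest for 5, among them Slc25a13, Slc25a23, Slc25a17 and Slc25a37. LKO replicate 7 was highest for 7 members, among them Slc25a15, Slc25a22, Slc25a3 and Slc25a51, and flox replicate 2 for 8, among them Slc25a47, Slc25a5, Slc25a39 and Slc25a11. The shares of all genes lowest or highest in these livers were not computed, so these counts show no trait particular to the carriers. The summed level of the family was 5910.2 to 7737 CPM in LKO livers and 6555 to 7675 CPM in flox livers, with LKO replicate 4 lowest and LKO replicate 7 highest.

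**Figure D3:**
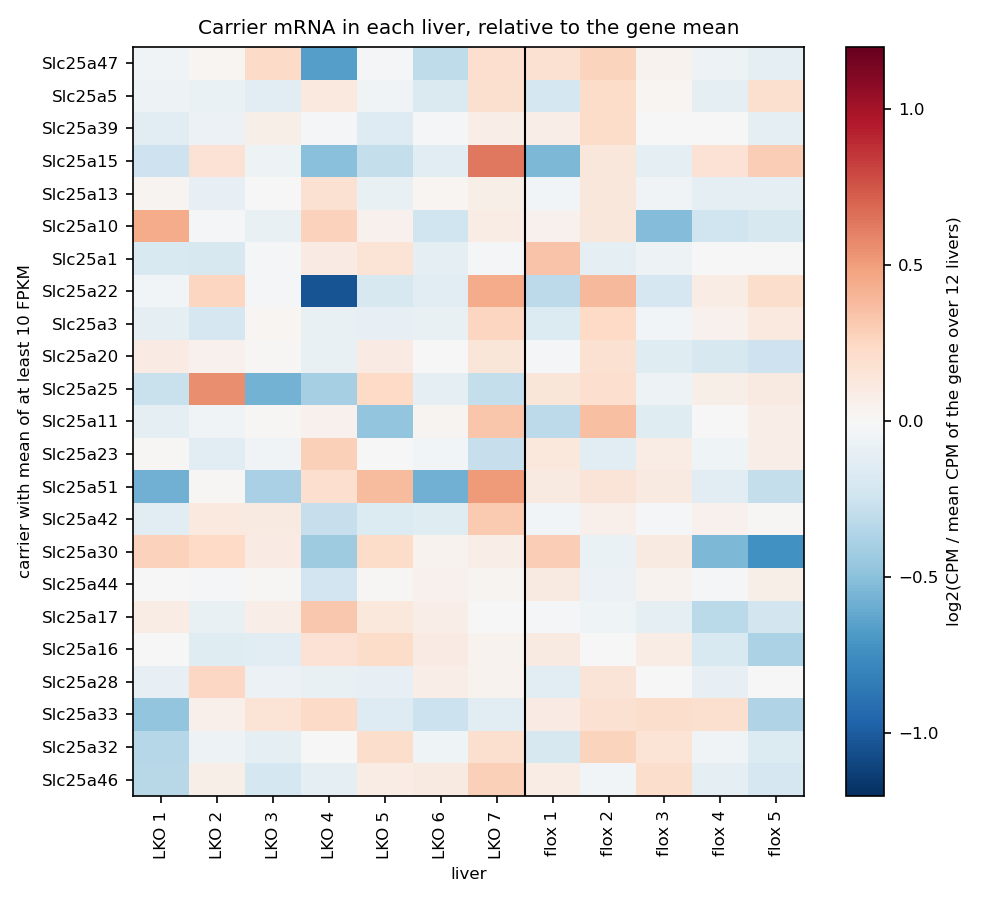
Level of the 23 carriers with a mean of at least 10 FPKM in each liver (columns, LKO left of the line and flox right), as log2 of CPM over the mean CPM of the gene in 12 livers. Slc25a22 and Slc25a47 are lowest in LKO replicate 4, Slc25a51 is low in LKO replicates 1, 3 and 6, and Slc25a30 is low in flox replicates 4 and 5.

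Slc25a4, Slc25a24 and Slc25a36, all low in liver, were highest in flox replicates 4 and 5, the livers in which the summed neutrophil, macrophage, endothelial and stellate cell markers were all highest. Slc25a4 measured 2.67, 2.93 and 4.46 CPM (lowest, median and highest) in LKO livers, and 2.46, 3.47, 1.15, 5.78 and 7.01 CPM in flox replicates 1 to 5. Slc25a24 measured 0.677, 1.34 and 1.52 CPM (lowest, median and highest) in LKO livers, and 0.899, 1.06, 1.53, 3.07 and 2.50 CPM in flox replicates 1 to 5. Slc25a36, a pyrimidine nucleotide carrier, measured 1.22, 2.45 and 3.33 CPM (lowest, median and highest) in LKO livers, and 1.92, 2.40, 2.06, 4.55 and 6.34 CPM in flox replicates 1 to 5. In all of these, flox replicates 1 to 3 lay within or close to the LKO range, except for Slc25a4 in flox replicate 3. It was at 1.15 CPM there, on 15 counts, against at least 2.67 CPM in LKO livers. In flox replicate 1 Slc25a4 lay slightly below the LKO range. Log2 fold changes with all livers were -0.35, -0.55 and -0.61 for Slc25a4, Slc25a24 and Slc25a36, and without flox replicates 4 and 5 they were 0.40, 0.10 and 0.09. With a single liver left out, Slc25a4 was at -0.58 without flox replicate 3, -0.19 without flox replicate 4 and -0.06 without flox replicate 5, Slc25a24 at -0.28 without flox replicate 4, and Slc25a36 at -0.29 without flox replicate 5. The pair held the 2 highest values for 4 of 40 tested members, 10%, and the 2 lowest for 5, 12.5%, beside 11.4% and 6.64% of all genes tested. The other member with its 2 highest values there was Slc25a12, at 29.9 and 32.9 CPM in flox replicates 4 and 5. Its log2 fold change was -0.18 with all livers and -0.03 without the pair. The part of neutrophils, macrophages, endothelial, stellate or other cells in these levels was not tested.

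**Figure D4:**
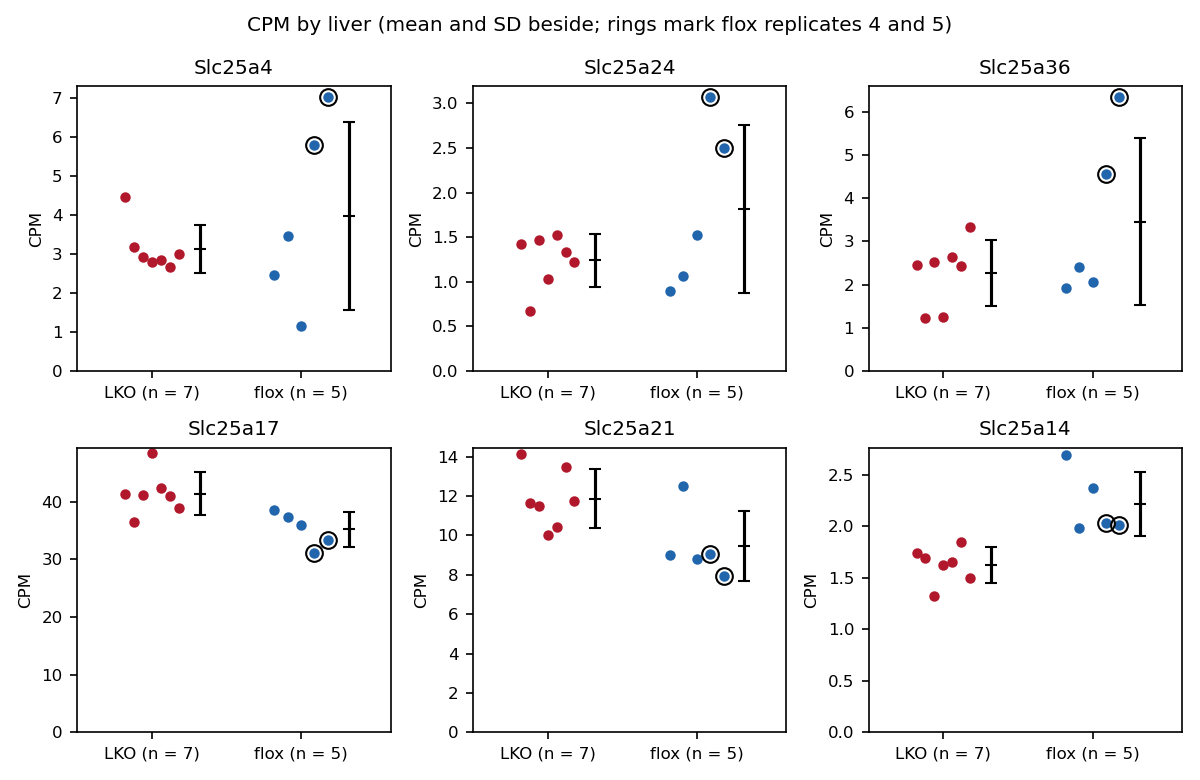
CPM in each liver for 6 carriers, with LKO livers left and flox livers right, the mean and SD beside each group and rings around flox replicates 4 and 5. The ringed livers are highest for Slc25a4, Slc25a24 and Slc25a36 and lowest for Slc25a17; the groups are separate for Slc25a14 alone.

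Genes that work with the carriers were read from lists chosen with earlier results of these data known, and 0 members of any list passed the threshold in edgeR. Of the SLC25 proteins with other symbols, 3 of 5 were tested, 1 positive and 2 negative, and their median was -0.03 with all livers and 0.10 without flox replicates 4 and 5. The uncoupling protein Ucp2 was at 27.8 ± 5.91 CPM in LKO livers and 52.0 ± 45.5 CPM in flox livers, with 79.1 and 119 CPM in flox replicates 4 and 5, and its log2 fold change was -0.91 with that pair and 0.42 without it. The outer membrane protein Mtch1 was at 79.7 ± 8.65 CPM in LKO livers and 77.1 ± 5.19 CPM in flox livers. For the TIM22 route, which inserts carriers into the inner membrane, 9 of the 13 genes listed were found by symbol and tested, 8 positive and 1 negative. Their median was 0.07, beside 48.3% positive and a median of -0.0060 over all genes tested. Without flox replicates 4 and 5 these medians were 0.05 and 0.0041. Timm10 and Timm13, small chaperones of the space between the membranes, had log2 fold changes of 0.23 and 0.12, with Timm13 at 0.07 without flox replicates 4 and 5. Other inner membrane transporters had 10 positive and 4 negative of 14 tested, from 16 listed. Their median was 0.04 with all livers and -0.03 without flox replicates 4 and 5. Sfxn3, the 1 with an unadjusted p under 0.05, was at -0.67 with all livers and -0.24 without the pair, where it had 2.21 and 2.50 CPM, and Sfxn2 was at -0.11.

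No enzyme acting on either side of the carriers passed the threshold. The malate-aspartate shuttle enzymes had 3 positive and 1 negative of 4, with Mdh1 at 0.17 and Mdh2 at -0.12 on the log2 scale of fold change, and Mdh2 at -0.06 without flox replicates 4 and 5. Carnitine shuttle enzymes had 2 in each direction, with Crot at 0.29 and Cpt1a at -0.15, and their median was -0.0092 with all livers and -0.12 without the pair. Of 6 urea cycle enzymes 1 was positive and 5 negative, the positive being Otc, ornithine transcarbamylase, which uses the ornithine that Slc25a15 imports. Otc was at 271 ± 50.6 CPM in LKO livers and 189.9 ± 35.1 CPM in flox livers (log2 fold change 0.51, adjusted p = 0.505 in edgeR), and its log2 fold change was 0.36 without flox replicates 4 and 5, while Asl was at -0.17. Heme and iron-sulfur cluster enzymes had 9 positive and 3 negative of 12, beside 48.3% positive of all genes tested, and their median was 0.04 with all livers and -0.03 without flox replicates 4 and 5. Cpox was at 0.37 and Nfs1 at 0.10.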

How the data were processed

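The authors deposited raw counts and FPKM by gene for the 12 livers. The submitters' processing notes name the build GRCm39 and featureCounts 1.5.0-p3, with HISAT2 2.0.5 among the other tools, while gene identifiers and coordinates in both tables are those of a C57BL/6NJ annotation, per the file headers and identifiers. How strand and shared reads were treated in counting is not given in the sources used. The deposited FPKM equal the count over gene length and 1 size per library, and were used to compare levels between genes. RNA was extracted with TRIzol and the library kit was NEBNext Ultra, per the labels' protocols.

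Counts were filtered with filterByExpr (minimum count 10), scaled by TMM and tested by the quasi-likelihood functions of edgeR 4.0.16 (glmQLFit, robust, and glmQLFTest; no covariates) in R 4.3.3, with Benjamini-Hochberg adjustment over all 12615 genes tested and a threshold of 0.05. Fold changes are LKO over flox. The edgeR test was first tried on simulated counts. Livers of the same group always differed by more than counting noise (9.07 to 94.0 chi-square units per degree of freedom), and p-values measure the spread between these livers. Alternatives used DESeq2 1.42.0, limma 3.58.1 (voom with quality weights, and the scale log2(FPKM + 0.1) or log2(FPKM + 1)), other scaling and filters, the replicate number as a block, and leaving out livers. The fits without flox replicates 4 and 5 together, and of the 10 numbered livers without the block, were chosen after seeing the data.

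The members, their role groups, the context lists and the rule for naming genes were chosen with earlier results of these data known. Values were given for the 12 highest members, the 8 with the smallest p, 19 with a known role in liver, and the 2 genes with the smallest p of each context list; other members are given more briefly, and the neighbours and sequences shown were chosen after their values were seen. Values of 1 member are not reported here, though the counts include it. Protein sequences were not used here. The 50-base comparison used GENCODE vM21 transcripts on both strands.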

Additional observations from a re-analysis of the deposited data

Results flagged for a closer look

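Within each group, the highest or lowest liver of each tested carrier was compared with the rest by Dixon's criterion. Of 80 groups of livers, 8 held a liver that stood out, and the nominal rate is about 1 in 20 groups. That rate takes the groups as independent, which they are not, since all carriers were measured in the same 12 livers. The share over all genes was not computed, so no excess can be read from this count. LKO replicate 4 was far from the other LKO livers for Slc25a30 (32.5 CPM, others 45.1 to 53.2), Slc25a44 (76.1 CPM, others 88.3 to 92.5) and Slc25a37 (41.5 CPM, others 23.3 to 31.1). LKO replicate 1 stood out for Slc25a4 (4.46 CPM, others 2.67 to 3.18) and LKO replicate 6 for Slc25a53 (1.46 CPM, others 0.837 to 1.11). Among flox livers, replicate 1 stood out for Slc25a1 (238 CPM, others 173 to 188), replicate 5 for Slc25a33 (12.4 CPM, others 17.1 to 18.5) and replicate 2 for Slc25a21 (12.5 CPM, others 7.92 to 9.04).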

How the results depend on the processing

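No member passed under any of the 24 alternatives (smallest adjusted p = 0.269). The number of all genes past the threshold was 1 in edgeR, 26 in DESeq2, and 1 to 2 when single livers were left out, 2 being the count without LKO replicate 7. Of 26 members described by the naming rule, 14 kept the sign of their log2 fold change under all alternatives. The share of all genes that did so was not computed. Without flox replicates 4 and 5, the sign turned for 10 of 40 tested members, 25%, beside 29.0% of all genes tested. Slc25a28 turned to -0.011 with library totals, -0.016 with the replicate block and -0.013 in the same 10 livers without it, and Slc25a38 to 0.021 with voom quality weights. Without flox replicates 4 and 5, Slc25a15 was at 0.13, Slc25a13 at -0.0051, Slc25a28 at -0.0042, Slc25a37 at -0.067, Slc25a4 at 0.40, Slc25a24 at 0.10 and Slc25a36 at 0.091; the cause was not tested. Leaving out single livers gave ranges of -0.19 to 0.031 for Slc25a15, -0.12 to 0.0076 for Slc25a1, -0.20 to 0.0064 for Slc25a22, -0.10 to 0.063 for Slc25a11, -0.11 to 0.064 for Slc25a51, -0.035 to 0.053 for Slc25a28, -0.10 to 0.069 for Slc25a38 and -0.069 to 0.11 for Slc25a37. Negative log2 fold changes numbered 25 with voom and 30 without flox replicates 4 and 5, of 40. Deviations from the group means had correlations of -0.29 to 0.10 between same-numbered livers, which cannot show whether these livers were paired. The labels do not state a pairing. The replicate block gave 0 members and 1 gene past the threshold. Counts of 19 to 45 behind Slc25a14 and of 2 to 16 behind Slc25a27 limit what could be seen there.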
